A study of Mus musculus with 12 samples.

Results

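The 39 genes described here are markers of endothelial cells and genes of blood vessel growth, chosen by name. They were measured in skeletal muscle of TG mice, transgenic animals with raised Nur77, and of WT (wild type) mice. Nur77 is an orphan nuclear receptor and the product of Nr4a1. All animals were fasted overnight. The labels used here give neither the promoter that drives the transgene nor the strain, sex or age. RNA of 2 mice was pooled, and each of the 3 TG and 3 WT pools was hybridised to 1 single-colour Illumina mouse array on each of 2 chips, so that 12 arrays stand for 6 pools. A member was taken as every probe carrying its symbol in the platform annotation: 38 of the 39 genes had a probe, 74 of 45281 probes in all, and Ly6a was not analysed here. Of these, 32 genes with 46 probes were bright enough to test, meaning detected on every array of TG, of WT or of both, among 9131 tested genes with 15708 probes. Values are log2 of the normalised intensity, averaged over the 2 arrays of a pool, and differences are TG minus WT.

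Endothelial cells line the vessels and are held together by junction proteins such as VE-cadherin (Cdh5) and claudin-5 (Cldn5). Vascular endothelial growth factors (VEGF) act on receptor tyrosine kinases and on neuropilin co-receptors of the endothelium, while the angiopoietin and Tie system and Notch signalling control vessel stability and sprouting. Transcription factors of the ETS, SoxF and Kruppel-like families maintain the endothelial state.

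Between 17607 and 19118 probes were detected per array. The Nr4a1 probe was detected on 0 of 12 arrays, with signals from -16.2 to 8.2 in TG and from -11.3 to 3 in WT, so it gave no check of the labels, and whether it lies within the transgene is not known here. Pool TG3 and the chip 2 array of pool WT1 stood apart in markers of other cells. The median of 10 leukocyte markers, relative to the WT mean, was 2.06 in TG3, against 0.18 in TG1 and 0.32 in TG2, and 1.40 on the chip 2 array of WT1, against -0.45 on its chip 1 array. The median of 12 fibroblast markers was 0.91 in TG3, 0.11 in TG1 and 0.07 in TG2. For the endothelial and angiogenic genes the median was 0.29 in TG1, 0.23 in TG2 and 0.04 in TG3, and between -0.02 and 0.04 in the WT pools. Counts of the members, and of the other lists where they differed, are therefore given with and without TG3. Mean levels of 10 muscle fibre markers lay between 15.1 and 15.2 on all 12 arrays. These are among the brightest genes (level percentiles 95.1 to 99.9), which quantile normalisation holds nearly equal across arrays. Their means therefore give no measure of fibre content.

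**Figure D1:**
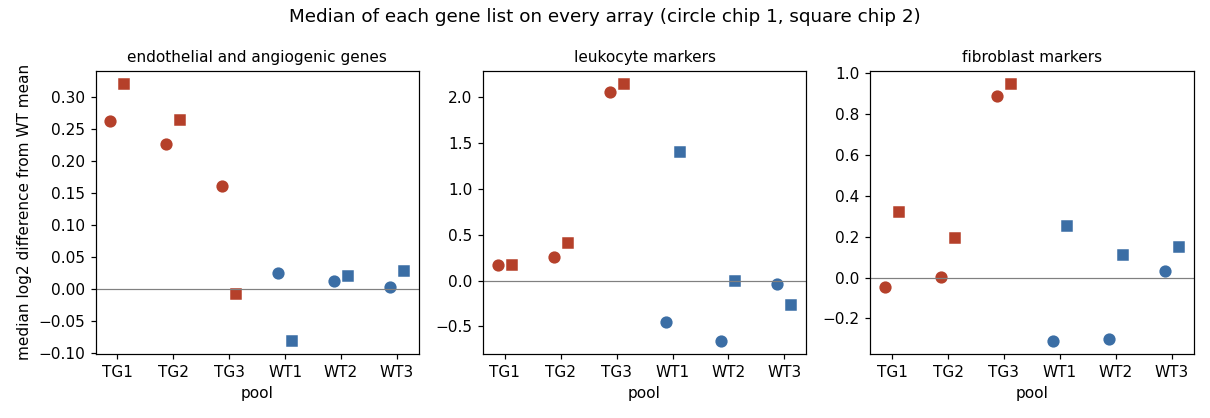
Median log2 difference from the WT mean (y axis) of the 32 tested endothelial and angiogenic genes, 10 leukocyte markers and 12 fibroblast markers on each array of the 3 TG pools (red) and 3 WT pools (blue). Circles are chip 1 arrays and squares chip 2 arrays, and the y scales differ between panels. Among the TG pools TG3 has the highest leukocyte and fibroblast medians, at 2.06 and 0.91 over its 2 arrays. Its median of the 32 endothelial and angiogenic genes is the lowest, at 0.04.

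In TG muscle 7 of the 32 tested genes were higher by limma at an adjusted p below 0.05, namely Vegfa, Nrp1, Ets1, Pecam1, Eng, Emcn and Vegfc, and 0 were lower, while 25 did not pass. Among all 9131 genes 12.1% were called higher and 15.9% lower. The difference was positive for 31 members and negative for 1, with a median of 0.18, beside -0.02 over all tested genes. The 3 TG pools all lay above the 3 WT pools for 11 members, where 20.6% of all genes did so, and all below for 0, where 27.0% did so. Among single probes, 25.8% of all 15708 were called in either direction. In pooled tissue RNA, more cells of a type and more RNA per cell cannot be told apart. Without TG3, 15 members were called, 6 of the 7 and 9 others, with a median of 0.27. Leaving out another single pool lowered the count, to 5 without TG2, 3 without TG1, WT1 or WT3, and 2 without WT2. Each pool was left out in turn, but TG3 was singled out after its values were seen. With WT1 taken from its chip 1 array and TG3 left out, a setting chosen after seeing the data, 13 were called, all 7 among them. The shares of all genes called in these settings are not given here, so these counts have no background beside them. Probe counts with single pools left out are given below.

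**Figure D2:**
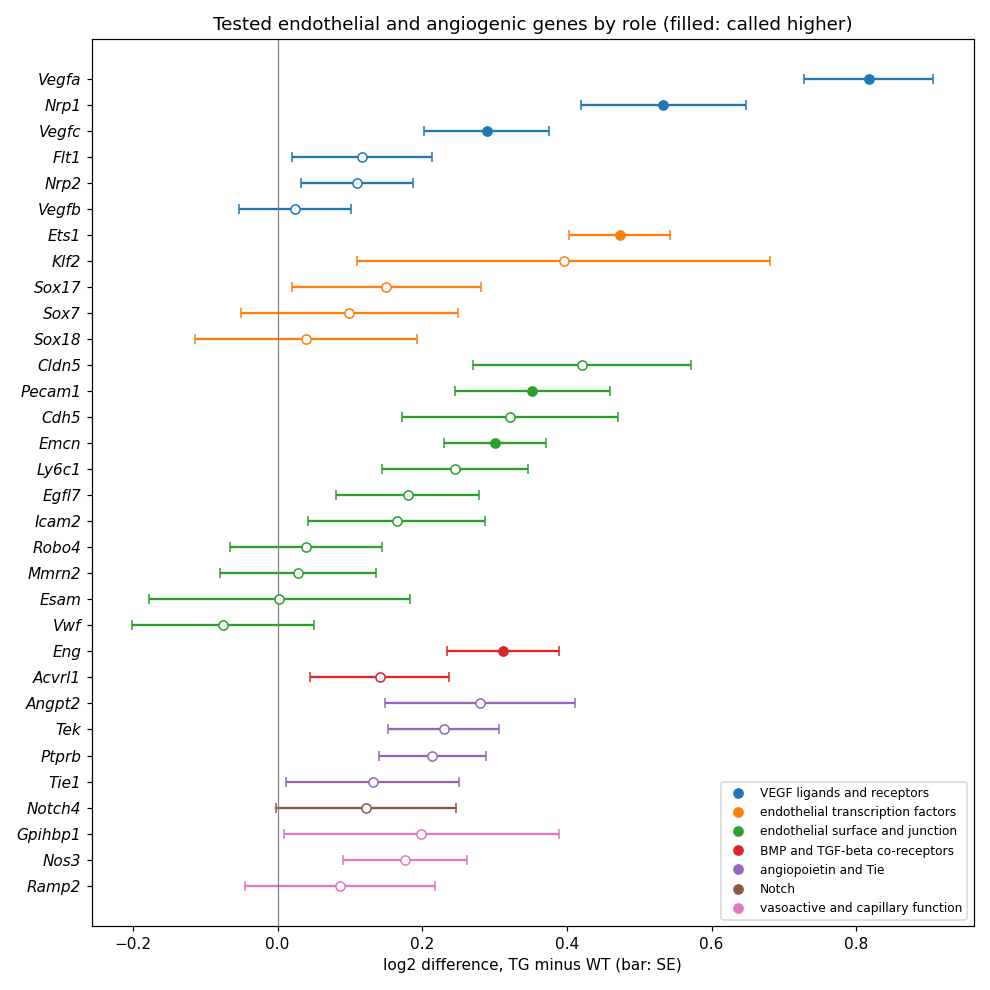
Log2 difference, TG minus WT (x axis), with its SE from limma, for the 32 tested genes (rows), coloured by role. Filled points are the 7 genes called higher. Of the 32 points 31 lie right of 0, Vegfa furthest at 0.82, and Vwf lies left of it at -0.08.

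Promoter sequence was looked up for the members because Nur77 binds the motif AAAGGTCA and Vegfa is a known target of hypoxia-inducible factors, which bind around ACGTG. The RefSeq windows (GRCm38.p6), 250 bases before to 50 after a start, cover 20 members with 26 windows. AAAGGTCA on either strand was found in 1 of 26 windows (3.85%), against 1.51% of all 32851 windows. ACGTG on either strand was in 1 of 26 (3.85%), against 19.6% of all windows. GGAA, the core letters of ETS sites, was in 25 of 26 (96.2%), against 96% of all windows. The AAAGGTCA match lies in the Emcn window at positions -153 to -146, counted from 0 at the start base, on the opposite strand to the gene, and the ACGTG match in the second Vegfa window at -211 to -207, also on the opposite strand. Such a match describes letters only. By its coordinates the second Vegfa window lies downstream of the first along the gene, so its match is not upstream of the first start. Sequence more than 250 bases before a start was not searched. The Emcn window (chr3:137340828-137341127, plus strand), the first Vegfa window (chr17:46032328-46032627, minus strand) and the second Vegfa window (chr17:46025114-46025413, minus strand) are shown 5′ to 3′ along the gene, with the matches in capitals. Both genes were called higher, and the matches fell in the Emcn and second Vegfa windows. The first Vegfa window holds neither AAAGGTCA nor ACGTG and is shown beside the second.
Emcn: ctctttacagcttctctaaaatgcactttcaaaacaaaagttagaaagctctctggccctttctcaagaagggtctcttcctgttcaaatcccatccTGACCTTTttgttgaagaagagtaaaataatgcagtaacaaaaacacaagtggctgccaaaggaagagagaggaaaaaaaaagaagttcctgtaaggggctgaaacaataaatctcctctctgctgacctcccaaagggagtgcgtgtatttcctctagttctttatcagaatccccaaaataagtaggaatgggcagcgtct
Vegfa, first: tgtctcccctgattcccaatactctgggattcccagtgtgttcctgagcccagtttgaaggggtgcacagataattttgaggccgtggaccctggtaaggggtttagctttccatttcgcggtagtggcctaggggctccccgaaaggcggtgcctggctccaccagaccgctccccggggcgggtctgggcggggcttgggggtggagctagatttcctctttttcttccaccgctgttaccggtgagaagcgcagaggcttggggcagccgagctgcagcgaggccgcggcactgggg
Vegfa, second: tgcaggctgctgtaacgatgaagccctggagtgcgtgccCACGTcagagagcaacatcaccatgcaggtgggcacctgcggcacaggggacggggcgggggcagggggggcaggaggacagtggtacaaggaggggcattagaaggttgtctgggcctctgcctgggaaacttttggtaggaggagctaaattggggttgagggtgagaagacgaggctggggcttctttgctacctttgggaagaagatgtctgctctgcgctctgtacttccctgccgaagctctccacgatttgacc

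Of the 7 genes for VEGF ligands and receptors 6 were tested, 3 were called higher and 3 did not pass. Vegfa encodes the main VEGF of vessel growth and permeability. Its brightest probe had log2 values of 11.98, 11.95 and 11.88 in TG1, TG2 and TG3, against 11.05, 11.02 and 11.29 in WT1, WT2 and WT3. In deposited signal these pools had 3895, 3769 and 3576 in TG and 2193, 2103 and 2546 in WT. All 3 TG pools lay above all WT pools, by more than the spread within either genotype. The difference was 0.82 ± 0.09 (SE, n = 3 pools per genotype, adjusted p = 0.000743 by limma), or 1.76-fold. A second, dimmer probe gave 8.42, 8.52 and 8.34 in TG and 7.40, 7.70 and 7.94 in WT, a difference of 0.75 ± 0.13 (adjusted p = 0.00615). One more Vegfa probe was detected on 0 of 12 arrays. Vegfa was called in 20 of 20 alternative settings.

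Nrp1, a neuropilin that binds VEGF and semaphorins, had 10.59, 10.55 and 10.94 in the TG pools and 10.27, 10.10 and 10.12 in the WT pools. TG3 was the highest of the 6 pools here, and the genotypes did not overlap. The difference was 0.53 ± 0.11 (adjusted p = 0.0129), and 0.41 without TG3, where it was still called. It did not pass without WT2 (0.50) or on chip 2 alone (0.42). A second probe gave 0.51 ± 0.11, also without overlap, whereas another, from a different transcript accession, gave 0.07 ± 0.09 with overlapping pools. The reading for Nrp1 therefore depends on the probe. Nrp1 is also expressed by cells other than endothelium, and the leukocyte and fibroblast medians were highest in TG3 too (2.06 and 0.91). Their part in the result was not tested.

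Vegfc, a ligand mainly of lymphatic vessels, had 7.45, 7.29 and 7.21 in TG and 6.95, 7.03 and 7.10 in WT. The gap between the lowest TG and the highest WT pool was narrow, 7.21 against 7.10. The difference was 0.29 ± 0.09 (adjusted p = 0.0425), and it was called in 10 of 20 alternatives. With single pools left out it was 0.22 to 0.34 and passed only without TG3. Flt1, the VEGF receptor that binds its ligands tightly and signals weakly, had 11.74, 11.73 and 11.44 in TG and 11.57, 11.51 and 11.48 in WT, overlapping because of TG3, with a difference of 0.12 ± 0.10. Its dimmer probe went the other way, at -0.12 ± 0.08, and neither passed. Nrp2, the neuropilin of veins and lymphatics (0.11 ± 0.08), and Vegfb, a ligand of Flt1 (0.02 ± 0.08, interval -0.15 to 0.20), did not pass. The probes of Kdr, the main signalling VEGF receptor, were not well above background: the brighter was detected on 1 of 6 TG and 1 of 6 WT arrays. A dim probe need not mean a low transcript, since Robo4 had a bright probe beside undetected ones. The same holds for the other members too dim to test.

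**Figure D3:**
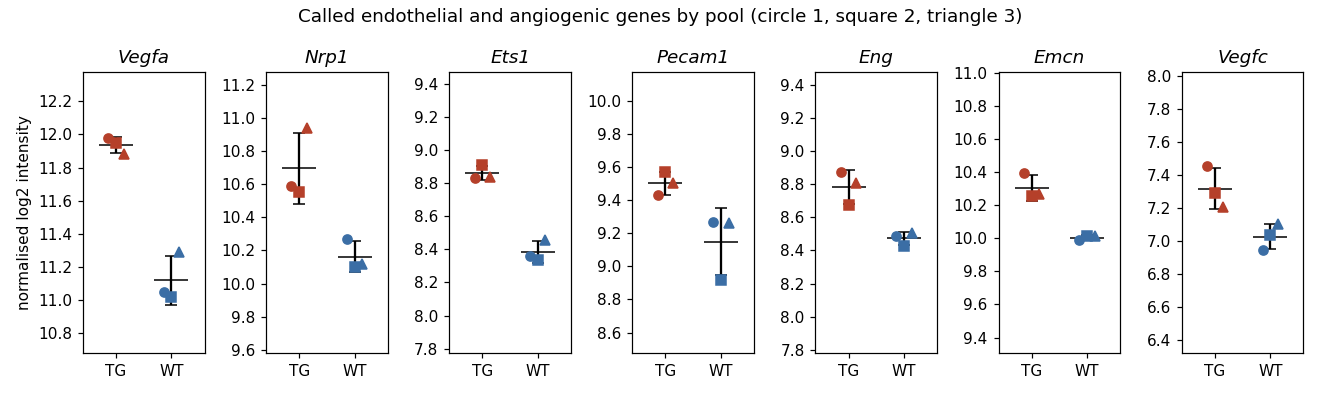
Normalised log2 intensity (y axes, each spanning the same 1.7 log2 units around its own middle) of the 7 genes called higher, by pool, TG (red) left of WT (blue). Symbols are pools 1, 2 and 3 and bars are the mean ± SD of 3 pools. In each panel the lowest TG pool lies above the highest WT pool, with the widest separation for Vegfa.

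Among the endothelial transcription factors 1 of 5 tested genes was called. Ets1, an ETS factor of endothelium and lymphocytes, had 8.83, 8.91 and 8.84 in the TG pools and 8.36, 8.34 and 8.46 in the WT pools. The pools of each genotype were close together and did not overlap. The difference was 0.47 ± 0.07 (adjusted p = 0.00289), called in 19 of 20 alternatives, the exception being chip 2 alone (0.42). Its 3 other probes were not tested. Klf2, induced by blood flow, had 9.92, 10.57 and 9.79 in TG and 9.47, 10.32 and 9.31 in WT. Pool 2 was highest in both genotypes, and arrays of 1 pool differed widely, such as 8.82 on chip 1 and 10.13 on chip 2 for WT1. Its difference of 0.40 ± 0.29 did not pass. The SoxF factors, which act in vessel and lymphatic development, measured 0.15 ± 0.13 for Sox17, 0.10 ± 0.15 for Sox7 and 0.04 ± 0.15 for Sox18 and did not pass. The probes of Erg, an ETS factor of mature endothelium, were not well above background, with detection of the brighter on 2 of 6 TG and 2 of 6 WT arrays.

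Of the 12 surface and junction genes 11 were tested, 2 were called and 9 did not pass, with a median of 0.18. Pecam1, an adhesion molecule of endothelium, platelets and leukocytes, had 9.43, 9.57 and 9.50 in TG and 9.27, 8.92 and 9.26 in WT. WT2 was the lowest pool, and the genotypes did not overlap. The difference was 0.35 ± 0.11 (adjusted p = 0.0450), called in 6 of 20 alternatives and lost when any single pool was left out, at 0.24 to 0.41. Its other probes gave -0.08 ± 0.08 and 0.12 ± 0.08. Emcn, endomucin, a sialoglycoprotein of capillaries and veins, had 10.39, 10.25 and 10.27 in TG and 9.99, 10.01 and 10.01 in WT. The WT pools were almost equal and lay below each TG pool, with a difference of 0.30 ± 0.07 (adjusted p = 0.0183, called in 12 of 20 alternatives). It did not pass without TG1, WT1, WT2 or WT3, within 0.26 to 0.33 over the pools left out.

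Cdh5 was split between its probes. The brighter one had 8.77, 8.91 and 8.35 in TG and 8.17, 8.45 and 8.43 in WT, overlapping through TG3, and did not pass (0.32 ± 0.15, adjusted p = 0.150). The dimmer one had 8.59, 8.54 and 8.42 in TG and 7.97, 8.10 and 8.15 in WT, without overlap, and was called (0.44 ± 0.08, adjusted p = 0.00753). Cldn5 had 10.57, 10.17 and 10.35 in TG and 10.16, 9.64 and 10.03 in WT. Its pools did not overlap, but the spread within each genotype was large and 0.42 ± 0.15 did not pass (adjusted p = 0.0746). Ly6c1, a surface antigen of endothelium and monocytes (0.24 ± 0.10), Egfl7, a matrix protein secreted by endothelium (0.18 ± 0.10), and Icam2, an adhesion molecule (0.16 ± 0.12), did not pass with TG3 included. Without it all 3 were called, as was the brighter probe of Cdh5 (0.49). Robo4, a guidance receptor of endothelium (0.04 ± 0.11), Mmrn2, an endothelial matrix protein (0.03 ± 0.11), Esam, a tight junction molecule (0.0021 ± 0.18), and Vwf, von Willebrand factor (-0.08 ± 0.13), had intervals reaching from below 0 to above it.

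**Figure D4:**
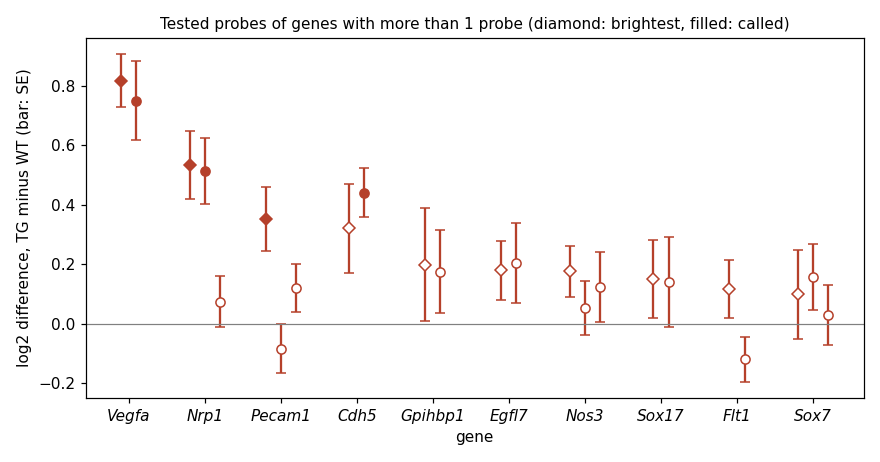
Log2 difference, TG minus WT, with SE (y axis), of every tested probe of the 10 tested genes that had more than 1. Diamonds are the brightest probe of a gene and filled symbols were called. The probes of Nrp1, Pecam1 and Cdh5 differ in call, and those of Pecam1 and Flt1 differ in sign.

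Endoglin (Eng), a co-receptor for BMP9 and TGF-beta ligands, had 8.88, 8.67 and 8.81 in TG and 8.49, 8.43 and 8.50 in WT. Each TG pool lay above each WT pool, with a difference of 0.31 ± 0.08 (adjusted p = 0.0225, called in 13 of 20 alternatives). It did not pass without TG1, WT1, WT2 or WT3, within 0.27 to 0.37 over the pools left out. Acvrl1, the type I receptor that endoglin works with, had a positive difference of 0.14 ± 0.10 and did not pass.

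Of the angiopoietin and Tie genes 4 were tested and 0 were called. Tek, the receptor Tie2 for angiopoietins, had 8.96, 8.88 and 8.80 in TG and 8.64, 8.58 and 8.72 in WT, without overlap (0.23 ± 0.08, adjusted p = 0.0607). Ptprb, the phosphatase that dampens Tie2, had 10.48, 10.46 and 10.37 in TG and 10.30, 10.22 and 10.15 in WT, also without overlap (0.21 ± 0.07, adjusted p = 0.0667). Angpt2, an antagonist of Tie2 in sprouting vessels (0.28 ± 0.13), and Tie1, a partner of Tie2 (0.13 ± 0.12), overlapped. Without TG3, Tek, Tie1 and Ptprb were called. The 3 probes of Angpt1, the Tie2 activator, were not well above background, and 1 of them was detected on 4 of 6 TG and 0 of 6 WT arrays.

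Notch4, an endothelial Notch receptor, had 9.97, 9.98 and 9.53 in TG and 9.64, 9.73 and 9.74 in WT. TG3 was the lowest of the 6 pools, and the difference of 0.12 ± 0.12 was called only without TG3 among the single pools left out (0.27). The probes of Dll4, a Notch ligand on sprouting tip cells, were not well above background. Nos3, the endothelial nitric oxide synthase, had 8.18, 8.14 and 7.92 in TG and 7.88, 7.92 and 7.92 in WT, with TG3 just above the WT pools (0.18 ± 0.09), and it too was called without TG3 (0.26). Its dimmer tested probes gave 0.12 ± 0.12 and 0.05 ± 0.09 with overlapping pools and did not pass. Gpihbp1, which carries lipoprotein lipase to the capillary lumen (0.20 ± 0.19), and Ramp2, a co-receptor for adrenomedullin (0.09 ± 0.13), did not pass. The probes of S1pr1, a sphingosine phosphate receptor, and of Calcrl, the receptor that works with Ramp2, were detected on 0 of 12 arrays.

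TG3 was the lowest of the 3 TG pools for 22 of the 32 members, though for only 2 of the 7 called genes. It lay above all WT pools for 13 members, while TG1 did so for 26 and TG2 for 25. Within a pool, arrays on the 2 chips differed by a root mean square of 0.33 over the members, arrays of different pools of 1 genotype by 0.32 on the same chip and 0.37 on different chips, and arrays of different genotypes by 0.42. Arrays of 1 pool were thus hardly closer than arrays of different pools of 1 genotype. With genotype and chip accounted for, the correlation between arrays of a pool was 0.14 over all tested probes. A chip difference was found for 0 members and for 1 of all 15708 tested probes. A genotype difference that depended on the chip was found for 0 members and 0 of all tested probes. Klf2 (0.79) and Sox18 (-0.66), chip 2 minus chip 1, differed most among the members without passing.

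Of 42 further endothelial markers 30 were tested, 10 higher and 1 lower, with a median of 0.22. Relative to the WT mean their median was 0.17 in TG1, 0.23 in TG2 and 0.23 in TG3. The low TG3 median of the members was thus not seen in this list. The smallest p among the further markers were those of Rgcc, a cell cycle regulator, which fell (-1.02 ± 0.15), Ly6e, a surface antigen (0.61 ± 0.09), and Adgrl4, an adhesion receptor of endothelium (0.41 ± 0.07). This list had 12 higher without TG3, but 4 without WT3, 5 without WT1 or TG2 and 6 without WT2, and 3 on chip 2 alone and 4 in the authors' deposited table, with Rgcc lower in each. Of 22 tested other angiogenic genes 4 were higher and 1 lower (median 0.11), and 3 and 1 without TG3. Without WT2 2 were higher and 0 lower, and on chip 2 alone 0 were called. They included Plxnd1, a semaphorin receptor (0.44 ± 0.07), Pdgfb, which recruits mural cells (0.47 ± 0.09), and the lymphangiogenic ligand Vegfd, which fell (-0.60 ± 0.13) while Vegfa rose. Of 12 tested mural cell genes 2 were higher and 0 lower (median 0.16), Notch3 (0.54 ± 0.07) and Mcam (0.63 ± 0.09). Without TG3 5 were higher, with a median of 0.28. Other Mcam probes gave 0.30, which was called, and 0.20, which was not.

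In the hypoxia-inducible factor pathway 18 genes were tested, and calls went both ways, 4 higher and 3 lower, with a median of 0.02. Without TG3 these were 5 and 3, with a median of 0.15, and without WT2 1 and 2. Hif3a, a factor that can oppose the others, fell (-0.86 ± 0.08), as did the glucose transporter Slc2a1 (-0.69 ± 0.12), while Egln3, a prolyl hydroxylase induced by hypoxia, rose (0.66 ± 0.09). Of 19 tested Notch and BMP genes outside the members 2 were higher and 1 lower (median 0.07), and without TG3 4 were higher and 1 lower. By their brightest probes the BMP receptor genes Bmpr2 (0.68 ± 0.08) and Bmpr1a (-0.51 ± 0.08) moved in opposite directions. The dimmer probe of Bmpr1a gave 0.04 and did not pass, while that of Bmpr2 gave 0.33 and was called. The reading for Bmpr1a therefore depends on the probe. Id2, a BMP target, rose (0.40 ± 0.12), but its dimmer probe, at 0.32, did not pass. Of 14 other endothelial transcription factors 1 was higher and 2 lower (median 0.12), Meox2 (0.35 ± 0.10), Ets2 (-0.49 ± 0.08) and Foxo1 (-1.05 ± 0.18), with 2 higher and 2 lower without TG3. Muscle RNA does not tell which cells these transcripts came from, here or among the further endothelial markers. Of 4 lymphatic genes 0 were called (median -0.03), also without TG3.

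**Figure D5:**
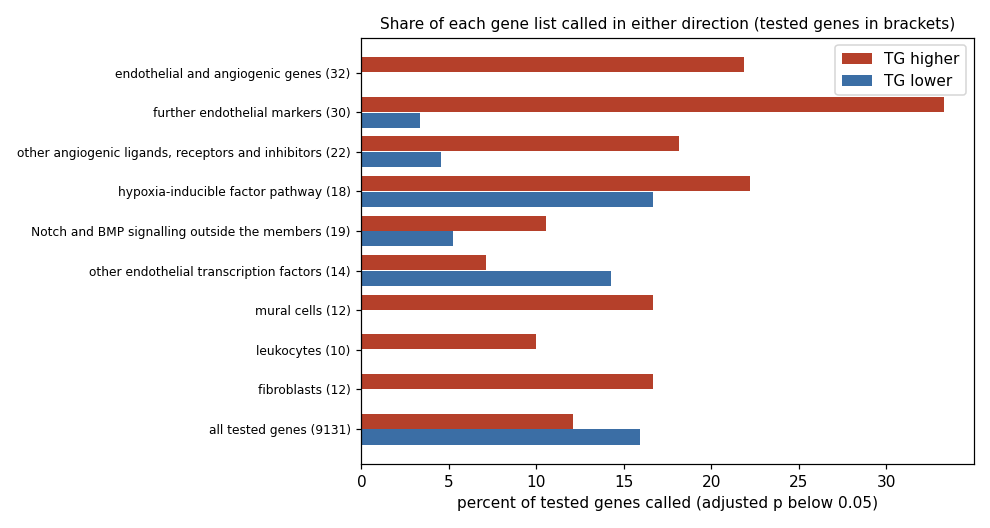
Percent of the tested genes of each list (rows, number tested in brackets) called higher (red) or lower (blue) in TG at an adjusted p below 0.05. The 32 endothelial and angiogenic genes have 7 higher and 0 lower, and all tested genes have 12.1% higher and 15.9% lower.

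Markers of other cells were measured beside these. Of 17 listed leukocyte markers 13 had a probe and 10 were tested, and Ptprc, Itgam and Cd3e were detected on 0 of 12 arrays. All 10 tested markers had a positive difference (median 0.82), and 1 was called, Cd74, the invariant chain of MHC class II (1.40 ± 0.35), though not without WT1, WT2 or WT3 (0.94 to 1.69 over its alternatives). Their mean level ranged from 8.23 to 9.96 in the TG pools and from 7.72 to 8.49 in the WT pools. Of 12 fibroblast markers 2 were called higher, Dpt (0.63 ± 0.15) and Pi16 (0.34 ± 0.09), with a median of 0.34 and mean levels of 9.58 to 10.3 in TG and 9.38 to 9.51 in WT. Without TG3 these medians were 0.22 and 0.08, with 1 leukocyte and 2 fibroblast markers called, and that of the endothelial and angiogenic genes was 0.27. With WT1 from its chip 1 array and without TG3, 7 of 10 leukocyte markers (median 0.56) and 4 of 12 fibroblast markers (median 0.26) were higher, beside a median of 0.26 for the endothelial and angiogenic genes.

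Red blood cell markers had 0 calls among 4 tested, but all 4 differences were positive, with a median of 0.22. Relative to the WT mean their median was 0.49 in TG1, 0.28 in TG2 and -0.10 in TG3, and -0.06 in WT1, 0.23 in WT2 and -0.15 in WT3. The TG pools thus stood in the same order as for the endothelial and angiogenic genes (0.29, 0.23 and 0.04), while WT2 overlapped them. Without TG3 1 red blood cell marker was called and the median was 0.39. Adipocyte (2 tested, median 0.42) and Schwann cell markers (3 tested, median -0.09) had 0 calls. Of 2 tested satellite cell markers 1 was higher, Megf10 (0.43 ± 0.09), although its dimmer probe, at 0.30, did not pass. Of 10 muscle fibre markers 2 were higher, the myosin Myh1 (0.36 ± 0.07) and the calcium buffer Pvalb (0.23 ± 0.07), and 1 was lower, the myosin Myh4 (-0.22 ± 0.06), with a median of -0.03. The part of any of these cells in the members' differences was not tested. Of the 38 called genes of all these other lists, 21 lost the call when at least 1 single pool was left out, among those named here Vegfd, Id2, Meox2, Dpt, Pi16, Cd74, Pvalb and Myh4.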

How the data were processed

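The deposited signals are intensity values per probe, linear and headed non-normalized per the file headers. They include values below 0 and have the same mean on all arrays, so they had been background-subtracted and scaled before deposit. A detection column accompanies each signal. Although it is a p-value per the file headers, it increased with signal, so 1 minus the column was used as the detection p. The authors' deposited table of log2 values served as an alternative. Scanner software and processing tools are not given in the sources used here.

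Signals were corrected with normexp (offset 50), quantile-normalised and log2-transformed in limma 3.58.1 (R 4.3.3), which shrinks differences between dim values. Each pool was the mean of its 2 arrays. A probe was tested if its detection p was under 0.05 throughout the 6 arrays of either genotype. The test ran on 6 pool means (lmFit and eBayes, two-sided, Benjamini-Hochberg over 15708 probes, threshold 0.05). A gene was represented by its brightest tested probe. The p-values measure the spread between pool means. That spread holds array-to-array differences as well as differences between pools of 2 mice, and the 2 were not separated. An exact permutation test of 3 against 3 cannot go below 0.1. Intervals are 95% intervals from limma.

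The members and the other gene lists were chosen with earlier results of these data known. Every member is accounted for, with pool values for called members and those whose probes disagree. Pool values of a few further members were added after their values were seen. Other lists are given by counts, the median and up to 3 called genes with the smallest p. Probe names come from the platform annotation and may be outdated. The fit was also run on simulated data, drawn for each probe independently and without effects shared by a pool or array. It therefore gives no check of the fit under such shared effects.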

Additional observations from a re-analysis of the deposited data

How the results depend on the processing

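The median difference of the members stayed positive in all 20 alternatives (0.12 to 0.27), and the number called lower was 0 in each. The number called higher was less stable. It was 4 when arrays were scaled to their 75th percentile, 3 in the authors' deposited table and 2 on chip 2 alone, and ranged from 2 (without WT2) to 15 (without TG3) with single pools left out. It was 3 without TG1, WT1 or WT3, and 13 with WT1 from its chip 1 array and without TG3. Over all 15708 tested probes 4060 were called with all pools and 1457 on chip 2 alone. Leaving out a pool gave 2062 (without WT2) to 4220 (without TG3), with 2588 without WT1 and 2583 without WT3. The cause was not tested. With the pool number as a replicate block 7 members and 3101 probes were called; Pecam1 and Vegfc were lost, Cldn5 and Klf2 gained. Same-numbered pools did not deviate together (correlations -0.42, 0.34 and -0.12), so the numbers were not taken as pairs.

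The sign turned for 10 members in 41 of 639 recomputed values, 0 of them called in either setting. With 75th percentile scaling Esam was -0.083, Mmrn2 -0.077, Robo4 -0.080, Sox18 -0.047 and Vegfb -0.010. From the authors' deposited table, Esam was -0.070, Mmrn2 -0.071, Robo4 -0.068 and Sox18 -0.045. On chip 1 alone Egfl7 was -0.080, Sox18 -0.078, Sox7 -0.090, Vegfb -0.11 and Vwf 0.099. On chip 2 alone Esam was -0.14 and Flt1 -0.013, and Flt1 was -0.0011 as the mean of its probes. With WT1 from its chip 1 array Esam was -0.032, Sox18 -0.11, Sox7 -0.0064 and Vegfb -0.031, and with TG3 also left out Vegfb was -0.049 and Vwf 0.064. With single pools left out the ranges were -0.13 to 0.23 for Esam, -0.032 to 0.13 for Mmrn2, -0.0079 to 0.21 for Ramp2, -0.032 to 0.15 for Robo4, -0.11 to 0.18 for Sox18, -0.032 to 0.21 for Sox7, -0.035 to 0.066 for Vegfb and -0.20 to 0.050 for Vwf. The number of arrays and pools, and signal over background for the 6 members whose probes were too dim to test, limit the precision.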
